A study of Mus musculus with 12 samples.

Results

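Macrophages and dendritic cells were followed here through 37 genes that mark them or carry out their work, taken by symbol from a table of RNA levels in mouse colon. Of these, 29 are genes of macrophages and monocytes and 8 are genes of dendritic cells, and both classes are described apart. They filled 38 of the 55335 rows of the table, because Itgam had 2 rows under different gene identifiers. The study gave thymopentin, a synthetic pentapeptide modelled on the thymic protein thymopoietin, to mice with colitis, and by its title asked about neutrophil extracellular traps. Colitis was induced with TNBS (trinitrobenzene sulfonic acid, a hapten) or with DSS (dextran sulfate sodium, which injures the colon epithelium). The 4 groups were wild-type mice with TNBS colitis given normal saline, TNBS colitis given thymopentin, DSS colitis given normal saline and DSS colitis given thymopentin, with 3 libraries in each. All mice shared the WT genotype and had colitis, and a colon without colitis was not analysed here. The sources used here do not state age, sex, strain, dose or time of collection. The labels do not say whether a library is 1 animal, so p-values measure the spread between these libraries, which may be technical.

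Macrophages of the gut wall are replenished from blood monocytes, which enter through the chemokine receptor Ccr2 and mature under the growth factor receptor Csf1r. Mature macrophages clear debris and immune complexes with scavenger receptors, Fc receptors and complement C1q, while dendritic cells sample antigen and present it to T cells. In an inflamed colon newly arrived monocytes and resident macrophages are found side by side, and their genes overlap in part with those of neutrophils and dendritic cells.

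Levels are given as FPKM, fragments scaled for the length of the transcript and the size of the library. The FPKM of a library summed to between 384431 and 417581 in TNBS colitis. The sums were 484974 to 532510 in DSS saline and 446364 to 475600 in DSS thymopentin. These totals did not overlap between the models or between the treatments in DSS colitis. The libraries had 13160 to 13805 genes at 1 FPKM or more. Read totals are not stated in the sources used here. The libraries of a group were not alike in the genes described here. TNBS saline 3 was the lowest of its group in 26 of the 27 rows that had a mean of at least 1 FPKM, and TNBS saline 2 was the highest in 24. TNBS thymopentin 3 was the lowest of its group in 25. Genes carried by all leukocytes (Ptprc, Laptm5, Cd53 and Coro1a) summed to 7.19 and 7.42 FPKM in TNBS saline 3 and TNBS thymopentin 3, against 25.4 to 58.3 in the other TNBS libraries. Results that rest on these 2 libraries are given with and without them.

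The labels of the gene set fitted the data for macrophages and less so for dendritic cells. The macrophage genes Cd68, Csf1r and, outside the members, Adgre1 were measured in all 12 libraries, Cd68 between 1.78 and 15 FPKM, Csf1r between 1.23 and 7.77 and Adgre1 between 0.52 and 3.28. The genes that define conventional dendritic cells were scarce. Xcr1 did not exceed 0.932 FPKM and Zbtb46, outside the members, did not exceed 0.567. Summed over the 30 macrophage and monocyte rows, FPKM was 459, 583 and 259 in TNBS saline, 496, 451 and 299 in TNBS thymopentin, 820, 1024 and 916 in DSS saline and 716, 769 and 702 in DSS thymopentin. Every DSS library lay above every TNBS library in this sum, and the DSS saline and DSS thymopentin libraries did not overlap. The 8 dendritic cell rows summed to 10.2, 14.4 and 3.44 FPKM in TNBS saline, 9.62, 10.4 and 7.6 in TNBS thymopentin, 17.3, 22.8 and 14.6 in DSS saline and 9.79, 15.4 and 14.9 in DSS thymopentin. Here the thymopentin and saline libraries overlapped in both models. Both sums weigh genes of high level most, Ctss and Lyz2 for macrophages and Cd83 for dendritic cells. The 5 dendritic cell receptors alone summed to 7.69 to 9.39 FPKM in DSS saline and 4.72 to 6.12 in DSS thymopentin, without overlap. The other dendritic cell genes, with Cd83, overlapped at 6.91 to 13.4 and 5.07 to 9.48. Bulk RNA of colon was measured, in which fewer cells of a type and less RNA per cell cannot be told apart.

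**Figure D1:**
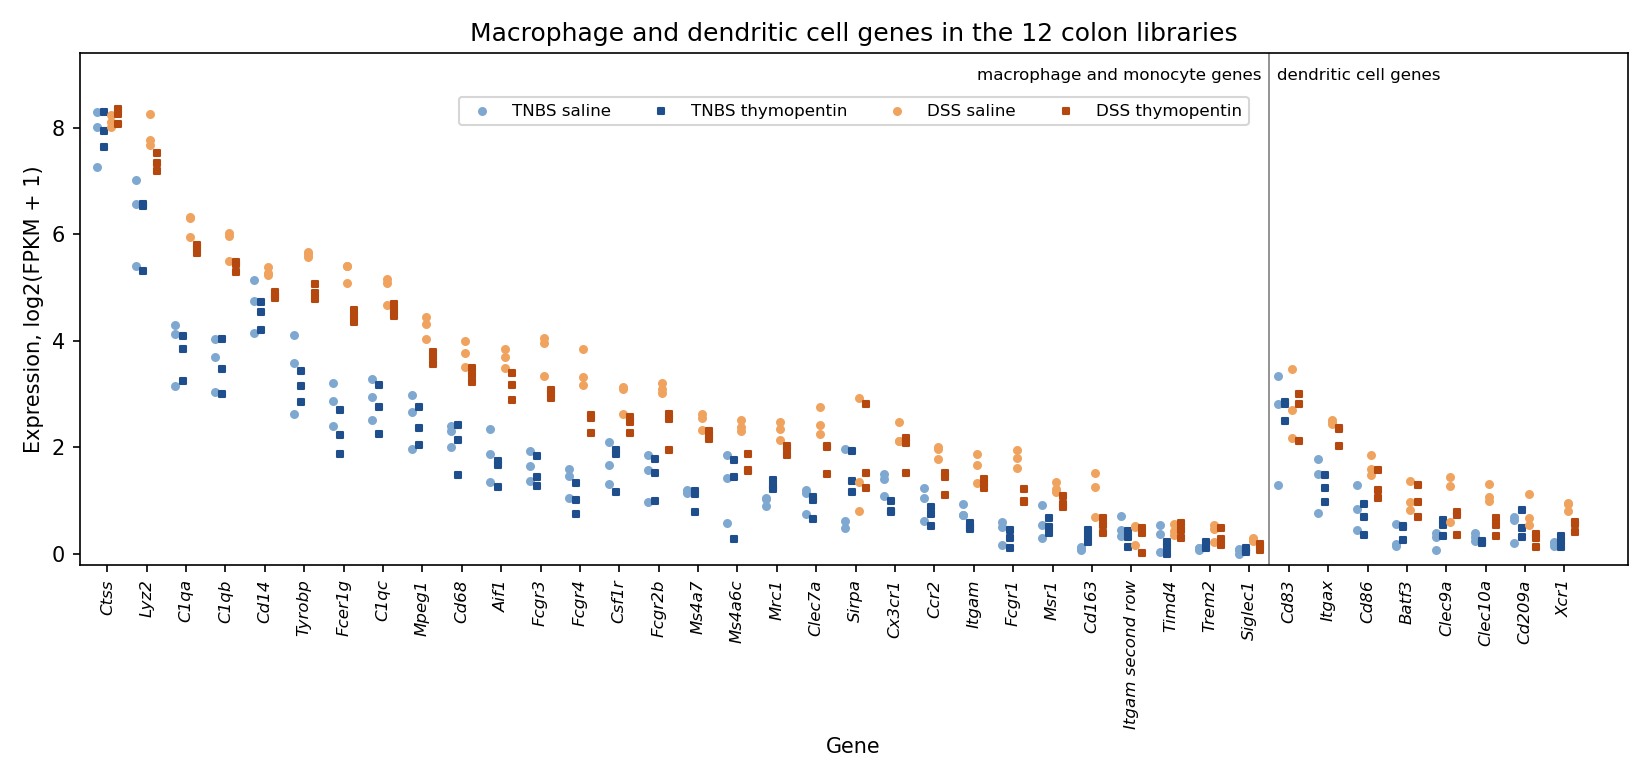
Expression on the scale log2(FPKM + 1) of all 38 rows (x axis, by mean level within each class) in the 12 libraries, with 1 point for each library and a colour for each group. DSS libraries sit above TNBS libraries for most macrophage genes, while Ctss and Cd83 show no such step and Sirpa has a single high library in both DSS groups.

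More macrophage genes were called between the colitis models than with treatment. In DSS saline 24 of the 27 rows that passed the filter of a mean of at least 1 FPKM were higher than in TNBS saline and none was lower, where 15.2% of the 13794 genes tested were called higher and 31.5% lower. With thymopentin in DSS colitis 7 of the 27 rows fell and none rose, where 4.3% of all genes tested were called lower and 12.7% higher. With thymopentin in TNBS colitis none of the 27 rows was called, where 0.667% of all genes were, and the smallest adjusted p of limma was 0.28. Calls required an adjusted p below 0.05 in limma's moderated test on log2(FPKM + 1) with Benjamini-Hochberg adjustment over all genes tested. The 27 rows hold 24 macrophage and 3 dendritic cell rows, and 4 of them had a mean below 1 FPKM in TNBS saline and passed through the DSS groups, so their count is not a count over all members.

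The same comparisons were therefore also fitted to all 38 rows with no filter on low values. DSS saline was then higher than TNBS saline for 30 of the 38 rows, 24 of 30 macrophage rows and 6 of 8 dendritic cell rows, where 9.17% of 34209 genes were. Thymopentin in DSS colitis gave 4 lower rows, Fcgr1, Fcgr4, Clec10a and Xcr1, where 1.47% of all genes were called lower. Without 1 library this count of 4 ran from 1 to 6, with 1 without DSS saline 3 or DSS thymopentin 2 and 2 without DSS thymopentin 3. In this fit Fcgr4 lost its call without any 1 of 7 libraries (limma adjusted p up to 0.128) and Fcgr1 without any 1 of 4 (up to 0.0908). The DSS libraries did not overlap, with thymopentin below saline, for 26 of the 38 rows, against 8.77% of all genes. Thymopentin in TNBS colitis gave no call, where 0.0555% of all genes were called higher and 0.0731% lower. The libraries did not overlap for 4 rows there, Mrc1 and Cd163 with thymopentin above saline (8.46% of all genes) and Cx3cr1 and Itgam with thymopentin below saline (4.44%).

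The 3 chains of complement C1q, which tags immune complexes and dying cells and is made in tissue chiefly by macrophages, stood several-fold higher in DSS than in TNBS colitis. C1qa measured 16.4, 18.6 and 7.87 in TNBS saline, 13.4, 15.9 and 8.47 in TNBS thymopentin, 61, 79.1 and 78.5 in DSS saline and 49.2, 52.8 and 54.8 in DSS thymopentin, in FPKM. C1qb measured 11.9, 15.3 and 7.18 in TNBS saline, 10.2, 15.3 and 7.04 in TNBS thymopentin, 44.1, 64.2 and 61.3 in DSS saline and 38.2, 42.3 and 43.4 in DSS thymopentin. C1qc measured 6.76, 8.8 and 4.74 in TNBS saline, 5.8, 8.04 and 3.78 in TNBS thymopentin, 24.5, 34.9 and 32.9 in DSS saline and 21, 22.8 and 24.9 in DSS thymopentin. For all 3 chains the lowest DSS library was above the highest TNBS library. The mean of C1qa was 5.1-fold higher in DSS saline than in TNBS saline (72.9 ± 10.3 against 14.3 ± 5.67 FPKM, SD, n = 3; log2 fold change 2.34 ± 0.29, SE; limma adjusted p = 0.000197). C1qb and C1qc differed by 2.24 ± 0.29 and 2.05 ± 0.25 on the log2 scale (limma adjusted p = 0.000231 and 0.000176). With thymopentin in DSS colitis the C1qa and C1qb libraries lay below all saline libraries and those of C1qc overlapped, but none of the 3 passed the test, with log2 fold changes of -0.46 ± 0.29, -0.43 ± 0.29 and -0.40 ± 0.25 (limma adjusted p = 0.281, 0.32 and 0.281). In TNBS colitis they were -0.13 ± 0.29, -0.08 ± 0.29 and -0.19 ± 0.25, with overlapping libraries. By same-numbered libraries C1qa was lower with thymopentin in 2 of 3 pairs and C1qb and C1qc in 3 of 3. The C1qb pair numbered 2 was almost equal (15.343 FPKM under saline and 15.336 under thymopentin). With the replicate number as a block none of the 3 chains was called in TNBS colitis (limma adjusted p = 0.682, 0.815 and 0.471). In DSS colitis, where same-numbered libraries share only a number, the block called all 3 lower with thymopentin (limma adjusted p = 0.0406, 0.0446 and 0.0461). The ratio of C1qb to C1qc lay between 1.51 and 1.91 over the 12 libraries and that of C1qa to C1qc between 1.66 and 2.49, both lowest in TNBS saline 3.

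Receptors for the Fc part of IgG gave 3 of the 7 falls with thymopentin in DSS colitis. Fcgr1 encodes the high-affinity receptor, Fcgr3 and Fcgr4 encode activating receptors of lower affinity, and Fcgr2b encodes the inhibitory receptor. The sequences before the start of Fcgr1, Fcgr3 and Fcgr4 are shown because these 3 called receptor genes hold, close to their start, the letters GAGGAA (here as TTCCTC, on the opposite strand), the core of sites for PU.1, the transcription factor that directs macrophage development. Each run holds the 250 bases before the RefSeq start, 5′ to 3′ along the gene, with the match in capitals. Positions are those of RefSeq on GRCm38.p6, a later build than the mm9 named in the submitters' processing notes, and the FPKM table gives none.
Fcgr1 (chr3:96293970-96294219, minus strand): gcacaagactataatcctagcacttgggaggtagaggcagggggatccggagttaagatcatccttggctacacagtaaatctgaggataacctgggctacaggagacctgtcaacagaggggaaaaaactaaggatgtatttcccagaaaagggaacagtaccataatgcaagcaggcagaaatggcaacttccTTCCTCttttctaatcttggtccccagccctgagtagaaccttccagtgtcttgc
Fcgr3 (chr1:171059395-171059644, minus strand): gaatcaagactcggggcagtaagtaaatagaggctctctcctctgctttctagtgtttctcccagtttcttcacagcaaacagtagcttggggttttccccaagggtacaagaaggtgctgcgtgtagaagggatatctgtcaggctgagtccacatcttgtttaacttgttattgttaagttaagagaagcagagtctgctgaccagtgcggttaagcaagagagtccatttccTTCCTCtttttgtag
Fcgr4 (chr1:171018676-171018925, plus strand): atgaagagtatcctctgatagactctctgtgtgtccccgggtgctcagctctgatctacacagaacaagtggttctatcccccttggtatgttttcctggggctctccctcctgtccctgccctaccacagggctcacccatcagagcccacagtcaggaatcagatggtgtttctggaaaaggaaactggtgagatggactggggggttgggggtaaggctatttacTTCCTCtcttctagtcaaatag
Fcer1g (chr1:171234350-171234599, minus strand): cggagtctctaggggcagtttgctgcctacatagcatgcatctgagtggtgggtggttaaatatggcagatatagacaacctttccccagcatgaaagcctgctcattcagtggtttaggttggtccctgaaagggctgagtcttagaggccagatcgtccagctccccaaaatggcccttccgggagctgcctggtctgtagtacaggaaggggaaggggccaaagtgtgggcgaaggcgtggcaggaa
The match ended 49, 9 and 16 bases before the start in Fcgr1, Fcgr3 and Fcgr4, and Fcer1g, which was also called, held none in this window. Nor did Fcgr2b, the other receptor, or Ccr2, another called gene, while Mrc1 and Clec7a did, so 5 of the 7 called genes held a match. Promoter entries were used for 27 of the 37 members. Of those, 13 (48.1%) held GAGGAA on either strand in the 250 bases, against 25.9% of 27025 mouse genes. Csf1r and Cd14 were among the members without an entry, because members on their chromosome were left out. The background of all mouse genes kept that chromosome, so the shares were not built by the same rule. Fcgr2b, Fcgr4, Fcgr3 and Fcer1g lie near each other on chromosome 1 and Fcgr1 lies on chromosome 3. A match of letters is a description of the sequence and does not show binding.

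Fcgr4 had the largest fitted fall. Its FPKM was 1.75, 2.03 and 1.08 in TNBS saline, 1.01, 1.53 and 0.676 in TNBS thymopentin, 7.96, 9.05 and 13.4 in DSS saline and 5.06, 3.82 and 4.87 in DSS thymopentin. Every thymopentin library of DSS colitis was below every saline library, and all 6 were above the 6 TNBS libraries. The mean went from 10.1 ± 2.88 to 4.59 ± 0.668 FPKM (SD, n = 3), a 2.21-fold fall, or -0.97 ± 0.21 on the log2 scale (limma adjusted p = 0.0152). Fcgr1 measured 0.51, 0.421 and 0.123 in TNBS saline, 0.231, 0.363 and 0.0792 in TNBS thymopentin, 2.48, 2.05 and 2.85 in DSS saline and 1.33, 0.975 and 1.01 in DSS thymopentin. Again the DSS groups did not overlap, and the TNBS libraries stayed near 0. It fell, at -0.72 ± 0.15 (limma adjusted p = 0.012). Fcgr3 measured 2.14, 2.8 and 1.58 in TNBS saline, 1.72, 2.58 and 1.44 in TNBS thymopentin, 9.07, 14.6 and 15.6 in DSS saline and 7.14, 7.49 and 6.62 in DSS thymopentin. DSS saline 1 was lower than the other DSS saline libraries, yet above all 3 thymopentin libraries, which were close together. It fell, at -0.77 ± 0.21 (limma adjusted p = 0.0342). Fcgr2b measured 1.99, 2.65 and 0.97 in TNBS saline, 1.88, 2.44 and 0.99 in TNBS thymopentin, 7.52, 8.22 and 7.17 in DSS saline and 2.87, 5.18 and 4.76 in DSS thymopentin. The inhibitory receptor did not overlap between the DSS groups either and missed the threshold with -0.74 ± 0.26 (limma adjusted p = 0.0759). Fcgr2b and Fcgr3 are near-identical over their ligand-binding parts, so the split of reads between them is uncertain. In TNBS colitis the 4 receptors had log2 fold changes between -0.34 and -0.04 and none was called.

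All 4 Fc receptor genes were higher in DSS than in TNBS colitis under saline, by 2.14 ± 0.21 for Fcgr3, 2.08 ± 0.21 for Fcgr4, 1.63 ± 0.26 for Fcgr2b and 1.36 ± 0.15 for Fcgr1 (limma adjusted p = 7.79e-05, 9.44e-05, 0.000751 and 0.000116). Under thymopentin the same 4 were higher in DSS by between 0.78 and 1.49. The call of Fcgr2b under thymopentin was lost without TNBS thymopentin 3, DSS thymopentin 2 or DSS thymopentin 3 (limma adjusted p up to 0.0891). The comparisons of models under saline and of thymopentin in DSS share the 3 DSS saline libraries.

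Fcer1g and Tyrobp encode small adaptor chains that carry the signal of Fc receptors and of many other receptors of myeloid and natural killer cells. Fcer1g measured 6.36, 8.24 and 4.26 in TNBS saline, 3.69, 5.53 and 2.68 in TNBS thymopentin, 41.2, 32.9 and 41.6 in DSS saline and 19.5, 21.2 and 22.9 in DSS thymopentin. Tyrobp measured 10.9, 16.2 and 5.18 in TNBS saline, 7.87, 9.74 and 6.21 in TNBS thymopentin, 46.5, 49.7 and 48.3 in DSS saline and 26.5, 32.5 and 28.7 in DSS thymopentin. For both genes the 3 thymopentin libraries of DSS colitis were below the 3 saline libraries and above all TNBS libraries. Fcer1g went from 38.6 ± 4.89 to 21.2 ± 1.7 FPKM (SD, n = 3) and fell by 0.83 ± 0.23 on the log2 scale (limma adjusted p = 0.0345). Tyrobp gave -0.71 ± 0.30 and was not called (limma adjusted p = 0.123). In TNBS colitis Fcer1g gave -0.56 ± 0.23 (limma adjusted p = 0.342), with overlapping groups, although it was lower with thymopentin in 3 of 3 pairs of same-numbered libraries. With the replicate block its limma adjusted p was 0.0976. Between the models under saline Fcer1g had the largest difference of the 27 rows on log2(FPKM + 1), 2.47 ± 0.23 (limma adjusted p = 5.75e-05), and Tyrobp gave 2.18 ± 0.30 (limma adjusted p = 0.000322). As a ratio of mean FPKM, Fcer1g was 6.14-fold higher, and Cd163 (17.9), Fcgr1 (7.01) and Fcgr4 (6.26) had larger ratios.

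**Figure D2:**
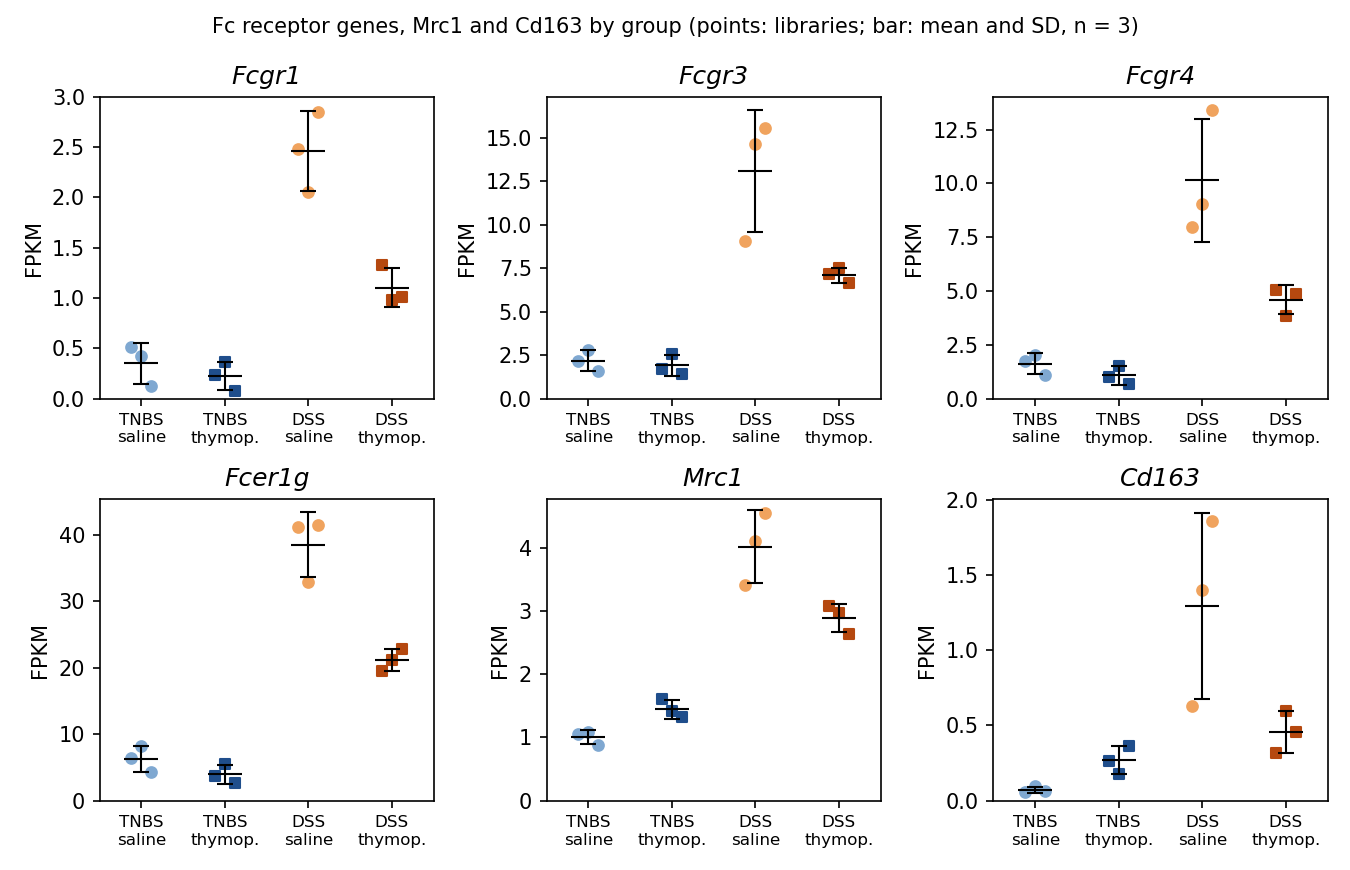
FPKM (y axes, from 0) of the activating Fc receptor genes Fcgr1, Fcgr3 and Fcgr4, the adaptor gene Fcer1g and the scavenger receptor genes Mrc1 and Cd163 in the 4 groups, with 1 point for each library and the mean and SD of 3 libraries in black. In each panel the DSS thymopentin points are below the DSS saline points, and in TNBS colitis Mrc1 and Cd163 have their thymopentin points above the saline points.

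Of the receptors for growth factors and chemokines, Ccr2 fell with thymopentin in DSS colitis. Ccr2, which brings monocytes out of the blood, measured 1.08, 1.37 and 0.544 in TNBS saline, 0.683, 0.834 and 0.447 in TNBS thymopentin, 2.45, 3.03 and 2.92 in DSS saline and 1.15, 1.86 and 1.73 in DSS thymopentin. Csf1r, which macrophages need to survive, measured 2.18, 3.32 and 1.49 in TNBS saline, 2.66, 2.86 and 1.23 in TNBS thymopentin, 5.19, 7.77 and 7.55 in DSS saline and 3.81, 4.92 and 4.59 in DSS thymopentin. Cx3cr1, a receptor of resident gut macrophages and patrolling monocytes, measured 1.65, 1.84 and 1.13 in TNBS saline, 0.735, 0.982 and 0.762 in TNBS thymopentin, 3.35, 3.36 and 4.56 in DSS saline and 1.87, 3.54 and 3.25 in DSS thymopentin. The DSS groups did not overlap for Ccr2 and Csf1r and did for Cx3cr1, whose TNBS thymopentin libraries were all below the TNBS saline libraries. Ccr2 fell in DSS, at -0.57 ± 0.17 (limma adjusted p = 0.0479), while Csf1r gave -0.52 ± 0.25 (limma adjusted p = 0.172). Cx3cr1 in TNBS gave -0.47 ± 0.18 and was not called (limma adjusted p = 0.319). All 3 were higher in DSS than in TNBS under saline, Csf1r by 1.25 ± 0.25, Ccr2 by 0.95 ± 0.17 and Cx3cr1 by 0.91 ± 0.18, and also under thymopentin, by 0.78 ± 0.25, 0.64 ± 0.17 and 1.06 ± 0.18. Under thymopentin the call of Csf1r was lost on leaving out TNBS thymopentin 1 or 3, TNBS saline 1, DSS saline 3 or DSS thymopentin 2 or 3 (limma adjusted p up to 0.134), and that of Ccr2 without TNBS thymopentin 3 or DSS thymopentin 2 or 3 (up to 0.0796).

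Mrc1 and Cd163, scavenger receptors of resident macrophages that take up mannosylated glycans and haemoglobin-haptoglobin complexes, lay higher with thymopentin in TNBS colitis and lower in DSS colitis. Mrc1 measured 1.05, 1.09 and 0.879 in TNBS saline, 1.61, 1.41 and 1.32 in TNBS thymopentin, 3.41, 4.11 and 4.55 in DSS saline and 3.08, 2.97 and 2.64 in DSS thymopentin. In TNBS every thymopentin library was above every saline library, and in DSS every thymopentin library was below. The difference was 0.29 ± 0.10 in TNBS, which was not called (limma adjusted p = 0.28), and Mrc1 fell in DSS, at -0.36 ± 0.10 (limma adjusted p = 0.0399). The responses differed by -0.65 ± 0.15 (DSS minus TNBS, limma adjusted p = 0.036), and Mrc1 was the only row of the 27 called for this difference, where 2.42% of all genes were called lower. With the replicate number as a block this call was lost (limma adjusted p = 0.0794), as it was without any 1 of 9 libraries, all except TNBS thymopentin 3, DSS saline 1 and DSS thymopentin 1 (limma adjusted p up to 0.0873 over all alternatives). The 250 bases before the start of Mrc1 on GRCm38.p6 held GAGGAA 3 times, each on the opposite strand and in capitals here.
Mrc1 (chr2:14229164-14229413, plus strand): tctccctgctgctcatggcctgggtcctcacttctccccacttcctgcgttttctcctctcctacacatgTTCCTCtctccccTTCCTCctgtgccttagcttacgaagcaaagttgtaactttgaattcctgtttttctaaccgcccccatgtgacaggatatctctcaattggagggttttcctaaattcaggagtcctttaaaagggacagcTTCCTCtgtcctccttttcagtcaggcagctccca
The nearest match ended 29 bases before the start.

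Cd163 was below the filter and measured 0.0557, 0.0955 and 0.0663 in TNBS saline, 0.265, 0.175 and 0.366 in TNBS thymopentin, 0.628, 1.4 and 1.86 in DSS saline and 0.316, 0.596 and 0.454 in DSS thymopentin, in FPKM. The saline and thymopentin libraries did not overlap in either model, in opposite directions. The authors' deposited table of selected genes for TNBS held 1173 of the 55335 genes, and Cd163 was the only member among them. In that authors' deposited table it had a log2 fold change of 1.69 (FDR 0.0055). Its reads numbered 14, 20 and 17 under saline and 61, 38 and 81 under thymopentin. In the authors' deposited table for DSS it had a log2 fold change of -1.54 (FDR 0.000178), from 144, 296 and 391 reads and 67, 105 and 100. Read numbers were recovered from the deposited log2 values. Both tables list only genes that changed at least 2-fold, which is a log2 fold change of 1, at a p of at most 0.05, so the genes in them were chosen for their difference. In the fit with no filter on low values, on log2(FPKM + 1), which understates changes at such levels, Cd163 gave 0.24 ± 0.17 in TNBS and -0.62 ± 0.17 in DSS (limma adjusted p = 0.722 and 0.0721). The difference of the responses was -0.86 ± 0.25 (limma adjusted p = 0.126), so it did not pass there.

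Among the other pattern and scavenger receptors, Clec7a fell with thymopentin in DSS colitis. Clec7a, the receptor of fungal beta-glucan (Dectin-1), measured 1.29, 1.2 and 0.674 in TNBS saline, 1.02, 1.09 and 0.586 in TNBS thymopentin, 3.77, 5.76 and 4.36 in DSS saline and 1.84, 3.02 and 3.07 in DSS thymopentin. Its DSS thymopentin libraries were all below the saline libraries, and it fell, at -0.63 ± 0.19 (limma adjusted p = 0.0495). Cd14, a co-receptor for bacterial lipopolysaccharide, measured 25.8, 34.2 and 16.8 in TNBS saline, 22.3, 25.7 and 17.5 in TNBS thymopentin, 40.9, 36.6 and 37.7 in DSS saline and 27.6, 29.4 and 27 in DSS thymopentin. Its DSS groups did not overlap, but -0.44 ± 0.21 did not pass (limma adjusted p = 0.169), and DSS and TNBS differed by 0.62 ± 0.21 under saline (limma adjusted p = 0.0341). That call was lost without TNBS saline 1, TNBS saline 3 or any 1 DSS saline library (limma adjusted p up to 0.101). Below the filter lay Msr1 (the class A scavenger receptor), Siglec1 (a sialic acid-binding lectin), Timd4 (a phosphatidylserine receptor) and Trem2 (a lipid sensor). Msr1 reached at most 1.54 FPKM, Timd4 0.499, Trem2 0.459 and Siglec1 0.225, and Timd4 was listed at 0 in TNBS thymopentin 3. With no filter, Msr1, Siglec1 and Trem2 were higher in DSS than in TNBS under saline, by 0.65 ± 0.15, 0.22 ± 0.03 and 0.31 ± 0.09 (limma adjusted p = 0.0127, 0.00186 and 0.039), and the call of Trem2 was lost without any 1 library except DSS saline 1, DSS thymopentin 2 and DSS thymopentin 3. None of these 4 was called with thymopentin.

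The integrin Itgam (CD11b), which binds complement fragments and adhesion molecules, measured 0.662, 0.919 and 0.657 in TNBS saline, 0.493, 0.378 and 0.417 in TNBS thymopentin, 2.17, 1.53 and 2.66 in DSS saline and 1.51, 1.37 and 1.64 in DSS thymopentin in its higher row. The TNBS thymopentin libraries were all below the TNBS saline libraries, and -0.29 ± 0.13 did not pass (limma adjusted p = 0.42). Itgam was higher in DSS than in TNBS by 0.82 ± 0.13 under saline and 0.81 ± 0.13 under thymopentin (limma adjusted p = 0.000809 and 0.0028). Its second row did not exceed 0.638 FPKM and gave no call in the fit with no filter. Sirpa, the receptor for the don't-eat-me signal CD47, ran from 0.399 to 2.91 FPKM in TNBS saline, 1.24 to 2.83 in TNBS thymopentin, 0.753 to 6.59 in DSS saline and 1.35 to 6.06 in DSS thymopentin. A single library was far above the others in both DSS groups, and Sirpa was called in no comparison. Its family members share sequence, so its reads are uncertain.

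Of the proteins of lysosomes, granules and the cell body, Ctss and Lyz2 had the highest mean levels per length of all members, and their differences between the models were unequal. Lyz2, lysozyme of phagocytes, measured 94.4, 129 and 41.3 in TNBS saline, 93.4, 91.4 and 38.6 in TNBS thymopentin, 203, 304 and 216 in DSS saline and 145, 184 and 159.8 in DSS thymopentin, in FPKM. Ctss, the lysosomal protease cathepsin S, measured 256, 311 and 152 in TNBS saline, 312, 244 and 198 in TNBS thymopentin, 258, 299.8 and 274 in DSS saline and 324, 303 and 266 in DSS thymopentin. Ctss overlapped between all 4 groups, while every DSS library of Lyz2 was above every TNBS library. Lyz2 differed between the models by 1.56 ± 0.42 under saline (limma adjusted p = 0.0113) and, not called, by 1.22 ± 0.42 under thymopentin (limma adjusted p = 0.0526); Ctss gave 0.27 ± 0.24 and 0.26 ± 0.24. Lyz2 is near-identical to Lyz1 of Paneth cells, so its reads are uncertain.

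Mpeg1, a pore-forming protein of macrophage vesicles, measured 5.31, 6.87 and 2.91 in TNBS saline, 4.13, 5.76 and 3.15 in TNBS thymopentin, 15.3, 20.9 and 18.8 in DSS saline and 10.9, 12 and 12.9 in DSS thymopentin. Cd68, a lysosomal membrane glycoprotein, measured 3.93, 4.29 and 3.02 in TNBS saline, 3.38, 4.38 and 1.78 in TNBS thymopentin, 10.4, 15 and 12.7 in DSS saline and 8.43, 10.3 and 9.31 in DSS thymopentin. Aif1 (Iba1), an actin-binding protein, measured 2.69, 4.11 and 1.57 in TNBS saline, 2.33, 2.2 and 1.4 in TNBS thymopentin, 10.3, 12 and 13.4 in DSS saline and 6.44, 9.58 and 8.04 in DSS thymopentin. For all 3 the DSS groups did not overlap and each DSS library was above each TNBS library. With thymopentin in DSS they gave -0.58 ± 0.25, -0.39 ± 0.22 and -0.52 ± 0.24, and none was called (limma adjusted p = 0.13, 0.237 and 0.148). Between the models under saline they gave 1.73 ± 0.25, 1.52 ± 0.22 and 1.82 ± 0.24 (limma adjusted p = 0.000404, 0.000446 and 0.000256). Ms4a7, a membrane protein of mature macrophages, measured 1.31, 1.25 and 1.2 in TNBS saline, 1.19, 1.28 and 0.719 in TNBS thymopentin, 4.02, 4.87 and 5.14 in DSS saline and 3.95, 3.47 and 3.68 in DSS thymopentin. Ms4a6c, of the same tetraspan family, measured 1.69, 2.64 and 0.5 in TNBS saline, 1.71, 2.38 and 0.213 in TNBS thymopentin, 3.94, 4.72 and 4.21 in DSS saline and 1.99, 2.69 and 1.94 in DSS thymopentin. Ms4a7 differed little among the TNBS saline libraries, whereas Ms4a6c spread several-fold within both TNBS groups. Under saline Ms4a7 was higher in DSS by 1.33 ± 0.12 (limma adjusted p = 5.21e-05) and Ms4a6c by 1.11 ± 0.38 (limma adjusted p = 0.0328). The call of Ms4a6c was lost without TNBS saline 1, TNBS saline 3 or any 1 DSS saline library (limma adjusted p up to 0.118), and Ms4a6 genes can share reads.

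Dendritic cell genes were lower in level, and 3 of the 8 passed the filter. Itgax (CD11c), an integrin of dendritic cells and gut macrophages, measured 1.85, 2.45 and 0.715 in TNBS saline, 1.38, 1.81 and 0.979 in TNBS thymopentin, 4.45, 4.64 and 4.69 in DSS saline and 3.08, 4.16 and 4.11 in DSS thymopentin. Cd86, a costimulatory ligand for T cells, measured 0.802, 1.45 and 0.36 in TNBS saline, 0.627, 0.924 and 0.279 in TNBS thymopentin, 2.03, 2.63 and 1.78 in DSS saline and 1.08, 1.31 and 1.99 in DSS thymopentin. Cd83, which marks mature dendritic cells, measured 6.02, 9.11 and 1.45 in TNBS saline, 6.19, 6.0 and 4.66 in TNBS thymopentin, 5.52, 10.03 and 3.55 in DSS saline and 3.37, 7.0 and 6.04 in DSS thymopentin. Each of these was lowest in TNBS saline 3 among the TNBS saline libraries, and the groups of each model overlapped except for Itgax in DSS. Itgax was higher in DSS than in TNBS by 1.13 ± 0.23 under saline and 1.01 ± 0.23 under thymopentin (limma adjusted p = 0.00257 and 0.01). Cd86 was higher under saline by 0.78 ± 0.23 (limma adjusted p = 0.0183), a call lost without TNBS saline 3 or DSS saline 2 (limma adjusted p up to 0.0676), and Cd83 was called in no comparison. With thymopentin in DSS colitis the 3 genes gave -0.23 ± 0.23, -0.36 ± 0.23 and -0.14 ± 0.48.

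The other 5 dendritic cell genes stayed below a mean of 1 FPKM. Batf3, a transcription factor of cross-presenting dendritic cells, measured 0.47, 0.117 and 0.139 in TNBS saline, 0.414, 0.444 and 0.201 in TNBS thymopentin, 0.963, 0.776 and 1.58 in DSS saline and 0.627, 0.956 and 1.45 in DSS thymopentin. Clec10a, a galactose-binding lectin of dendritic cells and macrophages, measured 0.31, 0.189 and 0.25 in TNBS saline, 0.174, 0.189 and 0.155 in TNBS thymopentin, 0.982, 1.5 and 1.1 in DSS saline and 0.257, 0.605 and 0.46 in DSS thymopentin. Xcr1, the chemokine receptor of cross-presenting dendritic cells, measured 0.173, 0.156 and 0.114 in TNBS saline, 0.187, 0.266 and 0.0952 in TNBS thymopentin, 0.756, 0.913 and 0.932 in DSS saline and 0.474, 0.33 and 0.519 in DSS thymopentin. In DSS colitis Batf3 overlapped between the treatments, while each thymopentin library of Clec10a and Xcr1 was below each saline library. With no filter on low values Clec10a fell by 0.61 ± 0.11 and Xcr1 by 0.37 ± 0.07 on the log2 scale (limma adjusted p = 0.0152 and 0.0225). Clec10a kept its call without any 1 library, at a limma adjusted p of up to 0.045, and Xcr1 lost it without DSS saline 3 or DSS thymopentin 2 (up to 0.0728). Clec9a, which senses dead cells, and Cd209a, a lectin of monocyte-derived dendritic cells, gave -0.47 ± 0.21 and -0.52 ± 0.19 and were not called (limma adjusted p = 0.248 and 0.15). Cd209a has close relatives with which it can share reads. Clec9a reached 1.73 FPKM in DSS saline 2 and 0.509 in DSS saline 3, so this group spread widely. Batf3, Clec9a, Clec10a and Xcr1 were higher in DSS than in TNBS under saline, by between 0.70 and 0.84 on the log2 scale, and Xcr1 also under thymopentin, by 0.29 ± 0.07 (limma adjusted p = 0.0399). Without 1 library the calls of Batf3 (TNBS saline 2 or 3, DSS saline 3), Clec9a (TNBS saline 1, DSS saline 1 or 2) and, under thymopentin, Xcr1 (TNBS saline 1 or 2, TNBS thymopentin 1 or 3, DSS thymopentin 1 or 3) were lost.

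The authors' deposited table of selected DSS genes held 2326 of the 55335 genes, and the share of them that were lower was not counted. Among them were 10 members, all lower with thymopentin. Besides Cd163 these were the receptors Fcgr1, Fcgr4 and Fcgr2b, with deposited log2 fold changes of -1.28, -1.25 and -1.01 in the authors' deposited table, the dendritic cell genes Cd209a, Clec10a, Clec9a and Xcr1 with -1.91, -1.53, -1.18 and -1.11, and Siglec1 and Ms4a6c with -1.17 and -1.10. In the authors' deposited table the FDR of Clec9a was 0.0522 and that of Siglec1 0.0489, the 2 highest of the 10. Cd209a rested on few reads, 79, 38 and 28 under saline and 14, 16 and 6 under thymopentin. Those behind Clec10a were 121, 169 and 124 against 32, 60 and 56, and those behind Xcr1 were 141, 158 and 160 against 81, 48 and 94. In each of these genes all saline libraries had more reads than all thymopentin libraries.

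Seen over the whole set, thymopentin in DSS colitis left 36 of the 38 rows below saline in fitted value, with a median log2 fold change of -0.44, against 0.01 for all genes with no filter. The exceptions were Ctss and Sirpa. The median was -0.45 over the 30 macrophage rows and -0.37 over the 8 dendritic cell rows, against -0.52 over the 24 and -0.23 over the 3 that passed the filter, with 0.12 for all genes tested there. Fcgr1, Fcgr4, Fcgr3, Fcer1g, Mrc1, Ccr2 and Clec7a were the rows called. The count of 7 became 0 without DSS saline 3 and 1 without DSS thymopentin 2, and 2 without TNBS saline 1, DSS thymopentin 1 or DSS thymopentin 3. It became 4 without TNBS thymopentin 2 or either of DSS saline 1 and 2. With TNBS saline 3 and TNBS thymopentin 3 both left out it became 13. Fcgr4 lost its call without DSS saline 3 or DSS thymopentin 2 (limma adjusted p up to 0.0599), Fcgr1 without DSS saline 3 (0.112 at most over all alternatives), and the other 5 without several libraries (up to between 0.107 and 0.138). Under another scaling of the libraries the share of called genes that were higher in this comparison went from 74.7% to 52.5% (quantile normalization) and 44% (median-ratio rescaling), and the median of all genes from 0.12 to 0.02 and -0.01; the median of the 27 rows went from -0.46 to -0.53 and -0.62.

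**Figure D3:**
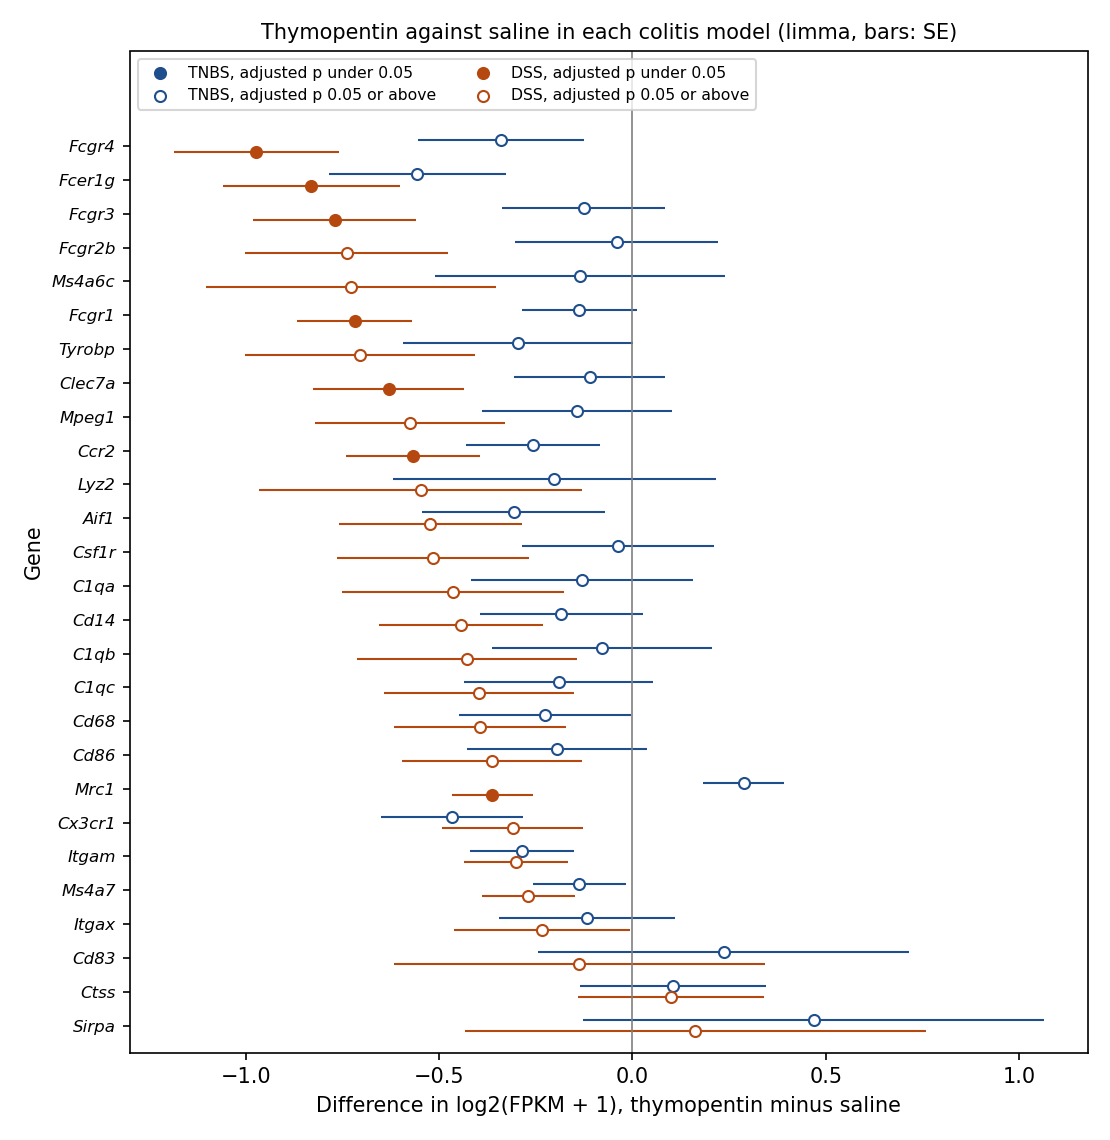
Difference in log2(FPKM + 1) between thymopentin and saline (x axis) for the 27 rows that passed the filter (y axis), in TNBS colitis (blue) and DSS colitis (orange), with the SE of limma's fit as bars. Filled points have an adjusted p under 0.05, and the 7 filled points, all of DSS colitis, lie between -0.97 and -0.36.

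In TNBS colitis 3 of the 27 rows had an unadjusted limma p under 0.05 (Mrc1, Cx3cr1 and Fcer1g). Of the 13794 genes tested 1748 did, a slightly larger share. None of the 27 rows passed after adjustment. With no filter 27 of the 38 rows were below saline in fitted value and 11 above, 24 of 30 macrophage rows and 3 of 8 dendritic cell rows being below. The medians were -0.14 over the 30 macrophage rows and 0.03 over the 8 dendritic cell rows, against 0.003 for all genes. Over the 3 dendritic cell rows that passed the filter the median had the other sign, -0.12. Without TNBS saline 3 and TNBS thymopentin 3 together the count of calls was again 0. The share of called genes that were higher went from 42.4% to 33.7% with quantiles equalised and 33.3% with median-ratio rescaling.

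Between the models under saline the median difference with no filter was 1.32 over the 30 macrophage rows and 0.77 over the 8 dendritic cell rows, against -0.002 for all genes, DSS minus TNBS. The 3 rows of the 27 not called were Ctss, Cd83 and Sirpa. With the TNBS libraries that stood lowest left out together 23 rows were called, and without TNBS saline 3 alone 21. Under thymopentin 20 of the 27 rows were higher in DSS and none lower, where 11% of all genes were called higher and 16.5% lower. The rows not called there were Ctss, Cd83, Sirpa, Cd14, Cd86, Lyz2 and Ms4a6c. Of the 27 rows, 6 had a mean below 1 FPKM in TNBS thymopentin and none had in DSS thymopentin, so those 6 passed the filter through other groups. Over all 38 rows with no filter 18 were called higher under thymopentin, where 3.91% of all genes were, and the median was 0.87 over the 30 macrophage rows and 0.29 over the 8 dendritic cell rows, against 0 for all genes. The 3 dendritic cell rows that passed the filter had a median of 0.62. The TNBS and DSS libraries did not overlap for 32 of 38 rows under saline and 28 under thymopentin, where 14.4% and 11% of all genes had DSS above TNBS. Under saline the share of called genes that were higher went from 32.5% to 43% with quantiles equalised and 50.9% with median-ratio rescaling, and under thymopentin from 40.1% to 42.5% and 50.9%.

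**Figure D4:**
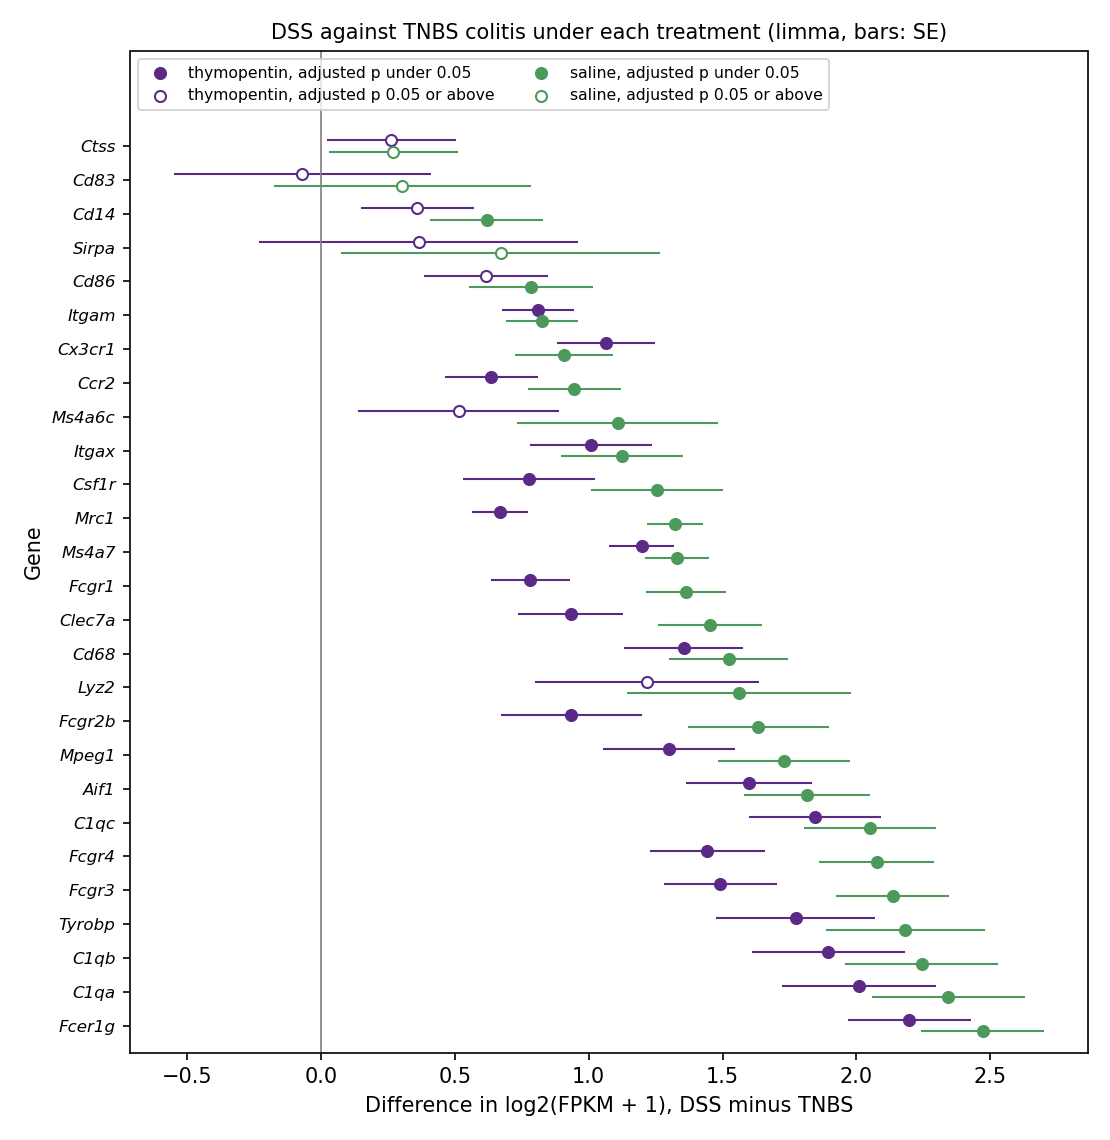
Difference in log2(FPKM + 1) between DSS and TNBS colitis (x axis) for the 27 rows that passed the filter (y axis), under saline (green) and under thymopentin (purple), with the SE of limma's fit as bars and filled points where the adjusted p was under 0.05. Fcer1g, C1qa, C1qb and Tyrobp have the largest differences under saline and Ctss and Cd83 the smallest.

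Genes around the members were read from lists that named the ligands, partners and transcription factors of these cells. Of 6 ligands of Ccr2, Cx3cr1 and Xcr1, all tested, 2 fell with thymopentin in DSS colitis and none in TNBS. Ccl7, a ligand of Ccr2, measured 0.956, 1.01 and 0.614 in TNBS saline, 0.767, 0.99 and 0.758 in TNBS thymopentin, 21.9, 8.56 and 10.8 in DSS saline and 3.42, 5.33 and 3.82 in DSS thymopentin. Ccl2, the main ligand of Ccr2, measured 1.66, 2.41 and 0.45 in TNBS saline, 0.57, 0.735 and 0.442 in TNBS thymopentin, 6.92, 2.06 and 4.4 in DSS saline and 1.01, 1.32 and 1.35 in DSS thymopentin. Both were highest in DSS saline 1, and DSS saline 2 was the lowest of its group yet above all thymopentin libraries. Both fell, at -1.42 ± 0.27 and -1.19 ± 0.35 (limma adjusted p = 0.00869 and 0.0414), and Ccl2 lost its call without any 1 library except TNBS saline 2, TNBS saline 3 and DSS saline 2 (up to 0.124). Ccl8, made by macrophages, went from 88.9 ± 7.54 to 47.4 ± 2.46 FPKM (SD, n = 3) without a call (limma adjusted p = 0.0957), and differed between the models under saline by 4.52 ± 0.34 (limma adjusted p = 2.88e-05). Under saline 5 of the 6 ligands were higher in DSS, Ccl2 not without TNBS saline 3, DSS saline 1 or DSS saline 3. Of 7 growth factors and receptors, 4 were tested and none was called with thymopentin in either model, while all 4 were higher in DSS than in TNBS under saline, Csf1, the ligand of Csf1r, by 0.86 ± 0.11 (limma adjusted p = 0.000257).

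Of 6 partners of C1q and complement receptors, 5 were tested, and 2 of them fell with thymopentin in DSS colitis. Serping1, the inhibitor of the C1 proteases, went from 59.3 ± 5.7 to 37 ± 3.25 FPKM (SD, n = 3; limma adjusted p = 0.00385) and C1s1, a C1 protease, from 31.1 ± 4.25 to 22.7 ± 2.65 (limma adjusted p = 0.0448). Both were also called for the difference of the responses, with -1.08 ± 0.15 and -0.77 ± 0.18 (limma adjusted p = 0.00716 and 0.0407). C1s1 lost its call in DSS without any 1 of 8 libraries (limma adjusted p up to 0.148) and for the difference without any 1 of 10 or with the replicate block (up to 0.0978). Both genes are also active in many stromal cells. Of 12 transcription factors, 11 were tested and Maf, which maintains resident macrophages, was the only factor called with thymopentin, with -0.68 ± 0.18 in DSS (limma adjusted p = 0.0294), lost without DSS saline 2 or 3 or DSS thymopentin 2 or 3 (up to 0.099). Of 16 other genes of mononuclear phagocytes, 12 were tested. Axl, a receptor for dying cells, rose in TNBS by 0.66 ± 0.10 and fell in DSS with -0.53 ± 0.10 (limma adjusted p = 0.0181 and 0.0077), and the responses differed by -1.19 ± 0.14 (limma adjusted p = 0.00476). With the replicate block Axl lost its call in TNBS (limma adjusted p = 0.0654), as it did on leaving out TNBS thymopentin 3, alone or together with TNBS saline 3, or TNBS saline 1. Mertk, of the same receptor family, rose in DSS by 0.54 ± 0.16 (limma adjusted p = 0.0441), lost without any 1 of 7 libraries and under both other scalings (up to 0.14). Between the models under saline 7 of these 12 genes were called higher in DSS and 1, Mertk, lower. Its mean was 6.87 ± 0.59 FPKM in DSS saline and 12.2 ± 1.15 in TNBS saline (SD, n = 3).

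Markers of other cell types moved with these results. Smooth muscle markers (Acta2, Myh11, Des and Tagln) summed to between 1942 and 2206 FPKM in DSS saline and between 837 and 1247 in DSS thymopentin, and 2 of the 4, Des and Tagln, fell, calls that were lost without any 1 of 9 and 5 libraries. Between the models under saline all 4 were higher in DSS, and under thymopentin none was called. Of 4 fibroblast markers 3 were higher in DSS under saline, Dcn, Col3a1 and Pdgfra, with sums of 107 to 127 FPKM in DSS and 51.7 to 58.4 in TNBS. Of 5 epithelial markers 3 were lower, Cdh1, Epcam and Vil1, with sums of 3027 to 3686 FPKM in DSS and 3386 to 4227 in TNBS. The fibroblast gene Dcn rose with thymopentin in TNBS by 0.83 ± 0.10 and fell in DSS with -0.51 ± 0.10 (limma adjusted p = 0.00674 and 0.0103), the only call among 4 fibroblast markers in either. Its call in TNBS was lost with the replicate block (limma adjusted p = 0.0554) and without TNBS saline 3 and TNBS thymopentin 3 together. The epithelial genes Cdh1 and Epcam rose in DSS with thymopentin, 2 of 5 epithelial markers (lost without any 1 of 6 and 3 libraries and under median-ratio rescaling), whose sums in DSS thymopentin were 3318 to 3878 FPKM.

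Among blood cells, the neutrophil list (S100a8, S100a9, Cxcr2, Csf3r, Retnlg, Mpo and Elane) summed to 5.17 to 9.53 FPKM in DSS saline and 0.65 to 1.26 in DSS thymopentin, and to 1.88 to 8.71 in TNBS saline and 0.236 to 1.0 in TNBS thymopentin. S100a8 and S100a9, the 2 of 7 that were tested, fell in DSS. Both passed the filter only through the saline groups, so the filter favoured genes that fall. Their means were 2.63 and 3.23 FPKM in DSS saline and 0.105 and 0 in DSS thymopentin. Mpo was listed at 0 in 11 libraries and Elane in 10, and their highest values were 0.0132 and 0.115 FPKM. Fcgr3, Fcgr4, Fcer1g, Tyrobp, Itgam and Clec7a are also expressed by neutrophils. None of 7 T cell markers and none of 4 genes of all leukocytes was called with thymopentin in either model. Between the models 6 of the 7 T cell markers were higher in DSS under saline and under thymopentin, summing to 31.1 to 45.6 FPKM in DSS saline and 4.23 to 15.2 in TNBS saline, and 1 of the 4 genes of all leukocytes, Laptm5, was higher under saline (lost without any 1 of 9 libraries). Of 6 B and plasma cell markers Sdc1, which epithelium also expresses, was called lower in DSS under saline and higher with thymopentin in DSS (lost without any 1 of 4 libraries); of 3 endothelial markers all were higher in DSS under saline and none was called with thymopentin. Kit, the only tested gene of 6 mast cell and eosinophil markers, was lower in DSS than in TNBS (lost under saline without any 1 of 3 libraries). Below the filter Cpa3 and Fcer1a went the other way. Their means were 0.245 and 0.069 FPKM in TNBS saline and 0.947 and 0.316 in DSS saline. Siglecf had 0.746 and 0.572, and Ccr3 and Epx stayed near 0. The part of these other cells in the values of the macrophage and dendritic cell genes was not tested.

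**Figure D5:**
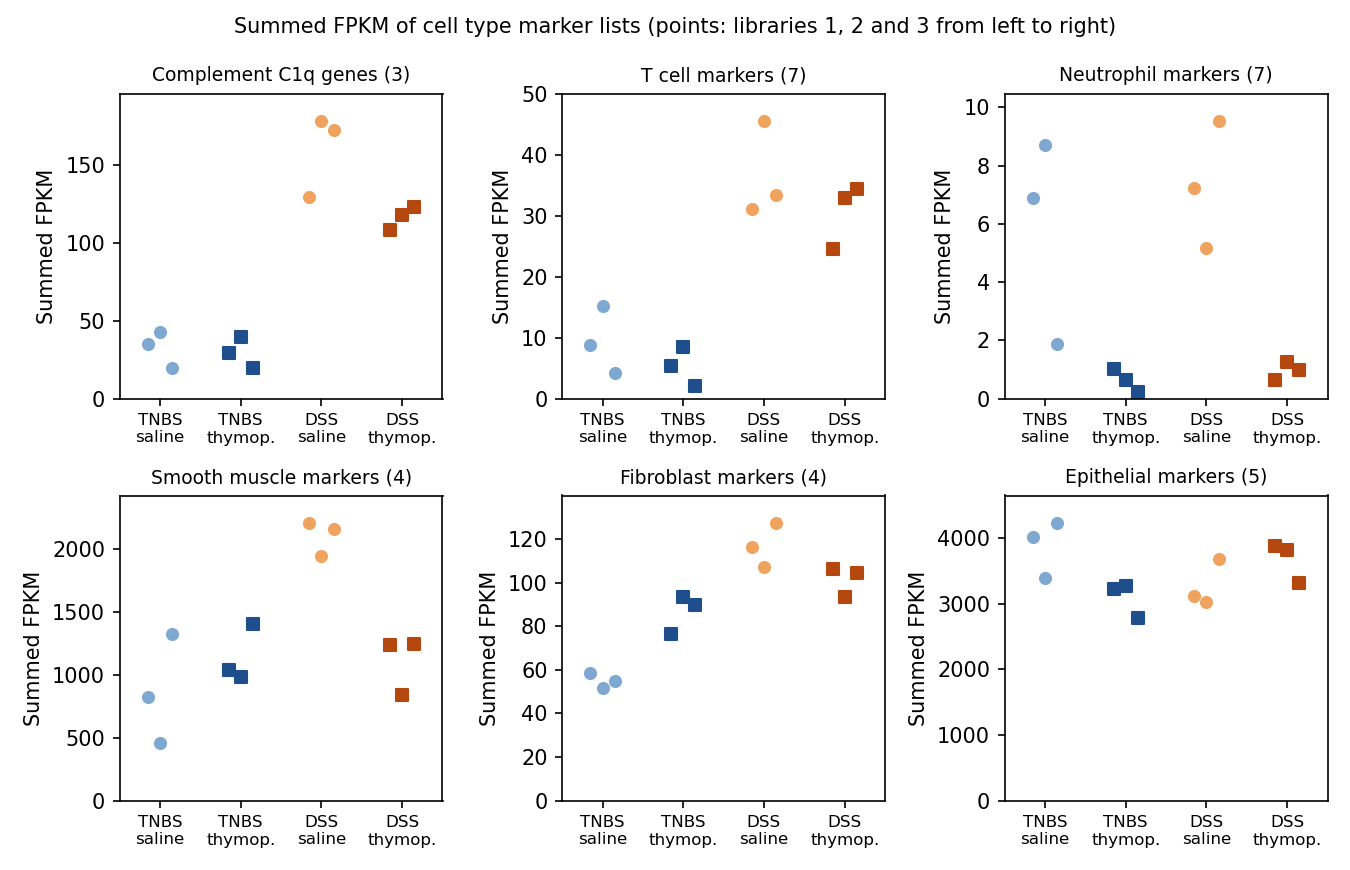
Summed FPKM (y axes, from 0) of the 3 C1q genes and of marker lists of T cells, neutrophils, smooth muscle, fibroblasts and epithelium in each library (points, replicates 1 to 3 from left to right in each group). C1q and T cell sums are higher in DSS than in TNBS, and the neutrophil and smooth muscle sums of DSS thymopentin are below those of DSS saline.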

How the data were processed

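The authors deposited FPKM of all genes for the 12 colon libraries, 3 in each of 4 groups taken from the treatment labels. Per the submitters' processing notes the build was mm9 and the tools included STAR 2.5, Cuffnorm, FastQC and DESeq 1.22.1, in no stated role. Per the labels' protocols TRIzol was used for the RNA and TruSeq, keeping strand, for the libraries. The authors' selected tables also hold, per the file headers, log2 fold changes, p-values and FDR, and deposited log2 values for each library, whose low values were all whole reads (7326 of 7326 of up to 30 reads, within 0.01 reads) once raised from log2 and scaled by a size factor between 0.8468 and 1.1247.

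limma 3.58.1 in R 4.3.3 fitted 4 group means to log2(FPKM + 1), with a pseudocount of 1, on the 13794 genes with a mean of at least 1 FPKM over the 12 libraries (8 residual degrees of freedom, empirical Bayes trend). FPKM are not counts, and reads are known only for the authors' selected genes, so no count test was run. P-values are two-sided and adjusted by Benjamini-Hochberg over all genes within each of 5 comparisons. The script was tested on simulated data. Exact permutation of 3 libraries against 3 gives no p below 0.1, so it was not used. Alternatives were the pseudocount, the filter, quantile and median-ratio rescaling, array weights, a fit of the compared groups alone, the replicate block and each library left out; leaving out TNBS saline 3 and TNBS thymopentin 3 together, and each library with no filter, were chosen after seeing the data. Where a library is left out, the spread is pooled over the rest.

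Deviations of same-numbered TNBS libraries correlated at 0.124, 0.268 and 0.476. Those of differently numbered TNBS libraries ran from -0.442 to 0.287, the highest between TNBS saline 2 and TNBS thymopentin 1. Only the libraries numbered 3 stood above that range. The main fit paired no libraries. Only in the replicate block and in the counts of pairs were the numbers taken to pair libraries, without a label that explains them. These correlations do not settle whether the numbers pair libraries in TNBS colitis.

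Members and lists were chosen with earlier results of these data known. Values in every library are printed for members called in any comparison and for the 6 macrophage and 4 dendritic cell members of highest mean, and up to 4 genes of each other list by p. Cd163, Clec10a, Xcr1, Mertk and Ccl8 received more detail after their values were seen. Promoters came from RefSeq on GRCm38.p6. Tables were read in Python 3.11.15 (pandas 2.3.3, numpy 2.4.6) and plots drawn with matplotlib 3.10.9.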

Additional observations from a re-analysis of the deposited data

Results flagged for a closer look

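The thymopentin response of Mrc1 differed between the models by the test of the difference itself, at -0.65 ± 0.15 on the log2 scale (DSS minus TNBS, SE, limma adjusted p = 0.036). It lay higher with thymopentin in 3 of 3 TNBS libraries and lower in 3 of 3 DSS libraries than in every saline library of the same model. With the replicate block the call was lost (limma adjusted p = 0.0794), as it was with no filter on low values (limma adjusted p = 0.0703). It was also lost without TNBS saline 3 and TNBS thymopentin 3 together and on leaving out most single libraries.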

How the results depend on the processing

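No member changed direction after being called, under any alternative run. Counts of called member rows moved as follows. For thymopentin in TNBS colitis the count of 0 became 3 with array weights and was 0 otherwise. For thymopentin in DSS colitis the 7 became 1 at a pseudocount of 0.1, 4 with no filter, 2 at a mean FPKM of at least 5, 12 with array weights, 16 with the replicate block, 13 without both TNBS libraries numbered 3, and 0 to 9 without 1 library. For the difference of the responses the 1 became 0 with no filter, 0 at a mean of at least 5, 4 with array weights, 0 with the replicate block, 0 without both TNBS libraries numbered 3, and 0 to 1 without 1 library. For DSS against TNBS the 24 under saline became 11 and the 20 under thymopentin 10 at a mean of at least 5, where fewer rows were tested, and 21 to 24 and 17 to 22 without 1 library. Same-numbered DSS libraries share only a number (correlations of their deviations -0.136, 0.043 and -0.14), as do libraries of different models; beyond Mrc1 and the DSS count the block moved no count of member calls by over 1.5 times. Over all genes tested, array weights gave 2547 calls in TNBS against 92, 4025 in DSS against 2346 and 2889 for the difference against 710, and its fit did not settle for every gene. No filter gave 44 in TNBS and 355 for the difference; a mean of at least 5 gave 1447 in DSS, 385 for the difference and 3661 between the models under saline against 6431; the compared groups alone gave 6 in TNBS. Without 1 library the ranges were 41 to 116, 923 to 2505 and 176 to 764, and under thymopentin between the models 2052 to 3999 against 3799; without both TNBS libraries numbered 3, TNBS gave 45. The cause of these changes was not tested. Depth limits the members below 1 FPKM, for which log2(FPKM + 1) understates differences.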
